A study of Rattus norvegicus with 6 samples.

Results

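The genes examined here are markers of the choroid plexus and the meninges, as read in rat medial prefrontal cortex after LSD. The 10 members were transthyretin (Ttr), Igf2, Enpp2, Ptgds, Igfbp2, Aqp1, Kl, Col1a1, Col1a2 and Bmp6. Every probe set that the platform annotation assigned to exactly 1 member symbol was kept, which gave 23 of the 8740 probe sets compared, for 10 of 4736 genes. One further probe set, which the annotation assigned to Ttr together with a pair of metallothionein symbols, was left out by that rule. The members were named with earlier results of these same arrays known, among them lower values of Ttr, Enpp2 and Igf2 after LSD. Their differences between LSD and saline are therefore given as a description, and an adjusted p serves only to place a probe set within the whole table.

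Both groups were male Sprague-Dawley rats of one supplier, with no genetic modification named and no age given. The LSD group received a single intraperitoneal dose of 1.0 mg/kg (+)-LSD tartrate, LSD (lysergic acid diethylamide) being a serotonergic hallucinogen, and the saline group received saline. The animals were killed 90 min later, and RNA of the medial prefrontal cortex was hybridised to Affymetrix rat oligonucleotide arrays, 3 per group. The labels speak of 4 rats per group with pooled tissue, whereas the study speaks of 3 pools per group with a pair of rats in each, which that number of animals could not fill. What separates the arrays of a group is therefore not settled, and a p-value speaks only for their spread, perhaps a technical one. The titles and treatment labels gave the groups. The second line of each sample's description names the opposite treatment, and under that reading every sign below would be turned. Values are log2 RMA values, which are background-corrected, quantile-normalised and summarised over the short probes of a set. No read depth exists for arrays, and the number of arrays limits the precision.

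The choroid plexus is a folded epithelium inside the brain ventricles that secretes cerebrospinal fluid, and the meninges are the fibroblast-rich membranes around the brain. Neither is a part of the cortical tissue itself. Transthyretin is the classical product of the plexus epithelium, which releases it into the fluid as a carrier of thyroxine and of retinol-binding protein. Type I collagen, whose chains are encoded by Col1a1 and Col1a2, is a product of fibroblasts and marks the meninges and the walls of larger vessels. Several of the other members are shared: Igf2 and Igfbp2 are made at both sites, Ptgds also by oligodendrocytes, and Enpp2 by both plexus epithelium and oligodendrocytes. In bulk tissue, fewer cells of a type and less RNA per cell cannot be told apart.

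Upstream sequences are shown for the 2 genes that the results turn on most, Ttr for its difference between groups and Igf2 for the disagreement among its probe sets. Each is the 250 bases before an annotated start in RefSeq (assembly GRCr8), 5′ to 3′ on the gene's strand, and windows were found for 8 of the 10 members. The Ttr window lies at chr18:12218508-12218757 on the plus strand, and its capitals mark the letters TATTGAC, a core of forkhead factor sites, read on the opposite strand with the first base 17 before the start. Igf2 has a pair of annotated starts, whose windows lie at chr1:207250476-207250725 and chr1:207253981-207254230, both on the minus strand. The capitals in the first Igf2 window mark a GC box, GGGCGG.
Ttr: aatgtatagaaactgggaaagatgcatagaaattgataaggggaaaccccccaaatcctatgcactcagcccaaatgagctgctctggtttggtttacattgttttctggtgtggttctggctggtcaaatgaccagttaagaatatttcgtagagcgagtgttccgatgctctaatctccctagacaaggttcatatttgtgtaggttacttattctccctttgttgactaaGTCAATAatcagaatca
Igf2, first window: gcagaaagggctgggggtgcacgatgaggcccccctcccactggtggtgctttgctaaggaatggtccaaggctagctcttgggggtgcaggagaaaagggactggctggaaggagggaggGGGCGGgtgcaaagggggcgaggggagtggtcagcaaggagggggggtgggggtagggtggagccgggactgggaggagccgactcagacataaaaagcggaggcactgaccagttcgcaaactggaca
Igf2, second window: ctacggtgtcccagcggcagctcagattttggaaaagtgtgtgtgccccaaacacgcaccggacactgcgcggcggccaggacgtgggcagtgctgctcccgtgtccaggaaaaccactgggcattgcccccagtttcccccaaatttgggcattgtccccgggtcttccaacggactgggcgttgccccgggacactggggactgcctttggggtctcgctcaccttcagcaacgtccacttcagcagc
All the letter strings below were searched on both strands in all 33469 annotated windows. TATTGAC was added after the Ttr sequence had been read, and it occurred in 1.28% of all windows and in that of Ttr alone among the members. GGGCGG occurred in 30.5% of all windows and in those of Igf2, Ptgds, Igfbp2, Aqp1, Kl and Bmp6. TATAAA occurred in 12.9% of all windows and in those of Aqp1 and Col1a2, and CCAAT in 34% of all and in those of Bmp6 and Col1a2. TGTTTAC (3.21% of all windows), TGTTTGC (4.16%) and TAATCC (6.34%) matched no member window. A match is a description of these letters and not of a bound site.

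Ttr stood out among the members. In its probe set rc_AA945169_g_at the saline arrays read 10.52, 10.42 and 10.33 and the LSD arrays 9.997, 9.92 and 9.88 log2 units. All LSD arrays lay below all saline arrays. The difference, LSD minus saline, was -0.49 ± 0.088 (SE of the limma fit, n = 3 per group), with a 95% interval from -0.70 to -0.29, a 1.41-fold lower signal. In rc_AA945169_at the saline arrays read 10.26, 10.19 and 10.22 and the LSD arrays 9.76, 9.87 and 9.82. The groups again did not overlap, with a difference of -0.41 ± 0.079 (SE, n = 3 per group), 1.32-fold lower. Both sets are named for the same transcript sequence, so they do not count as independent readings. Their single probes were not examined.

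Over the whole table the Ttr sets ranked 19 and 25 of 8740 by p. They did not pass an adjusted p of 0.05 in limma with Benjamini-Hochberg adjustment (adjusted p = 0.238 and 0.315, n = 3 per group), a threshold that 0.0686% of all probe sets passed. With an intensity trend and a robust prior in the same limma fit both passed (adjusted p = 0.0183 and 0.0250), as they did with array weights (adjusted p = 0.0338 and 0.0492). The share of all probe sets that passed under these settings was not counted, so nothing is read from these passes. With 1 array left out at a time, the limma adjusted p lay between 0.359 and 0.998 for the first set and between 0.402 and 0.998 for the second. The size of the difference moved little, from -0.54 to -0.44 and from -0.43 to -0.36 over all alternatives. The probe set shared with the metallothionein symbols read 7.50, 7.48 and 7.60 with saline and 7.47, 7.47 and 7.38 with LSD, a difference of -0.09 ± 0.082 (SE).

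**Figure D1:**
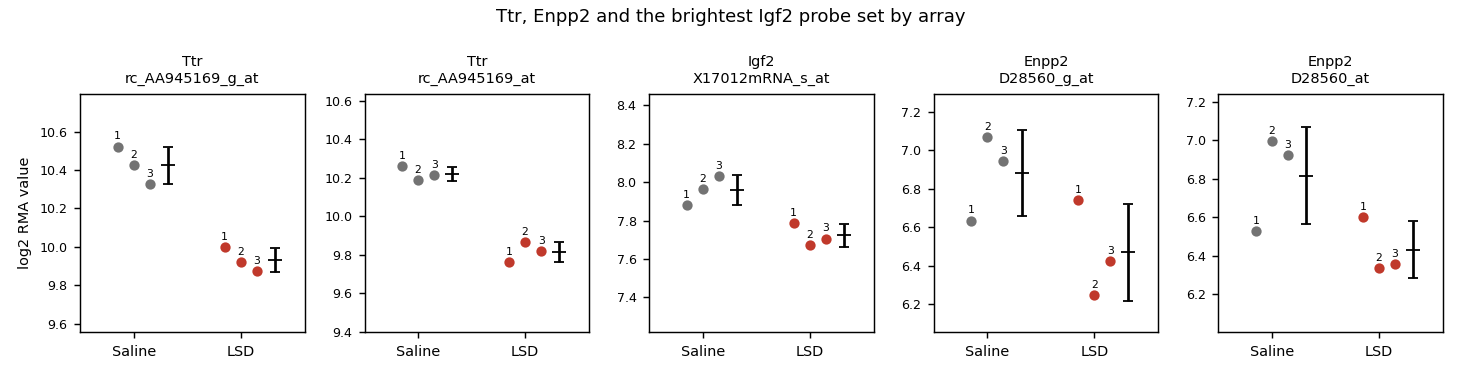
Log2 RMA value (vertical axis) of each saline and LSD array for both Ttr probe sets, both Enpp2 probe sets and the brightest Igf2 probe set, with array numbers beside the points and the mean ± SD at the side of each group. The vertical axes span the same number of log2 units but start at different levels, and the LSD points lie below every saline point for Ttr and for this Igf2 set, while for Enpp2 the array LSD 1 lies above Saline 1.

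Enpp2 encodes autotaxin, the secreted enzyme that makes the signalling lipid lysophosphatidic acid. In D28560_g_at the saline arrays read 6.63, 7.07 and 6.94 and the LSD arrays 6.74, 6.24 and 6.42. In D28560_at they read 6.53, 7.0 and 6.92 with saline and 6.601, 6.34 and 6.36 with LSD. The 2 sets gave the same picture, in which LSD 2 and LSD 3 were low and LSD 1 exceeded Saline 1, so the groups overlapped. As with Ttr, these sets come from the same sequence and do not count as independent readings. The differences were -0.41 ± 0.16 and -0.39 ± 0.14 (SE, n = 3 per group), about 1.33-fold and 1.31-fold lower, with limma adjusted p = 0.981 for each. Without Saline 1 they were -0.54 and -0.53. With array weights D28560_at passed (-0.55, limma adjusted p = 0.0386) and D28560_g_at did not (-0.63, adjusted p = 0.0507). How many of all probe sets passed with array weights was not counted. Oligodendrocytes also make Enpp2. Of 12 oligodendrocyte genes measured, 6 were nominally higher and 6 lower after LSD and 0 passed, and their summed linear level ran from 4633 to 5469 over the saline arrays and from 5090 to 5277 over the LSD arrays. Mbp, a main myelin gene, read 11.01 in Saline 1 against 11.28 and 11.38 in the other saline arrays, so that Saline 1 was low for Mbp as it was for Enpp2. With LSD, Mbp read 11.22, 11.245 and 11.19, a difference of -0.0034 ± 0.11 (SE). Saline 2 and Saline 3 lay above every LSD array for Mbp, so the size of this difference hung on Saline 1. The part of these values in the Enpp2 difference was not tested.

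Igf2, a growth factor released by plexus and meninges, was read by 6 probe sets that did not move together. X17012mRNA_s_at, the brightest, read 7.88, 7.96 and 8.03 with saline and 7.79, 7.67 and 7.71 with LSD. These groups did not overlap, and the difference was -0.24 ± 0.085 (SE, n = 3 per group), with a 95% interval from -0.43 to -0.04 and a limma adjusted p of 0.981. The other 5 sets of Igf2 were nominally higher after LSD, by 0.02 to 0.10. One of them, X16703_i_at, had LSD arrays (2.75, 2.75 and 2.79) that were all above the saline arrays (2.61, 2.66 and 2.72), close to the low end of the scale. M17960_g_at differed by 0.06 ± 0.11 and M17960_at by 0.08 ± 0.083 (SE), both with overlapping groups. The lower value of Igf2 thus rested on 1 of its 6 sets, and that set carries a suffix, _s_at, which marks sets that may match more than one transcript. E00988mRNA_s_at, among the 5 higher sets, carries the same suffix. The M17960 sets share a sequence, as do the X16703 sets, so the 5 do not count as independent readings. X16703_r_at was also low, with a mean of 3.50 over the arrays. Igfbp2, a binding protein for insulin-like growth factors, gave -0.08 ± 0.089, 0.10 ± 0.13 and -0.05 ± 0.13 (SE) in its 3 sets, all with overlapping groups.

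Ptgds, the lipocalin-type prostaglandin D synthase secreted by meninges and plexus, read 10.06, 10.02 and 10.02 with saline and 10.24, 10.18 and 10.05 with LSD. LSD 3 lay within the saline range and the difference was 0.12 ± 0.086 (SE, n = 3 per group). Aqp1, the water channel of the apical plexus membrane, read 4.20, 4.22 and 4.11 with saline and 4.42, 4.39 and 4.17 with LSD. Its difference was 0.15 ± 0.096 (SE), again with LSD 3 inside the saline range. Kl, which encodes klotho, a co-receptor for fibroblast growth factor signalling, read 5.57, 5.19 and 5.20 with saline and 5.23, 5.32 and 5.18 with LSD. Saline 1 was high and the remaining 5 arrays were alike, so that the difference of -0.08 ± 0.12 (SE) turned to 0.05 without Saline 1. The plexus genes Ttr and Aqp1 thus had differences of opposite sign.

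The meninges members were nominally higher in 4 of their 7 sets, and in none of the 7 did the groups stand apart. Col1a2 read 4.81, 5.03 and 5.33 with saline and 5.04, 5.33 and 5.31 with LSD, a difference of 0.17 ± 0.15 (SE, n = 3 per group). It was 0.04 without Saline 1 and 0.31 without Saline 3. The sets of Col1a1 disagreed. The brightest, rc_AI231472_s_at, read 6.26, 6.32 and 6.27 with saline and 6.32, 6.46 and 6.46 with LSD, a difference of 0.13 ± 0.083 (SE). Z78279_at read 5.21, 5.68 and 5.73 against 5.06, 5.47 and 5.51, a difference of -0.19 ± 0.17 (SE), and Z78279_g_at, from the same sequence, differed by -0.17 ± 0.16. The fourth set, M27207mRNA_s_at, differed by -0.0020 ± 0.14. Within each group the first array was lowest for Z78279_at, and the spread among saline arrays exceeded the difference, which was -0.36 without Saline 1 and -0.05 without LSD 1. Bmp6, a growth factor of the bone morphogenetic protein family, differed by 0.11 ± 0.087 and 0.22 ± 0.13 (SE) in its 2 sets, the latter, U66298_at, being 0.03 with array weights and 0.12 without Saline 1.

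**Figure D2:**
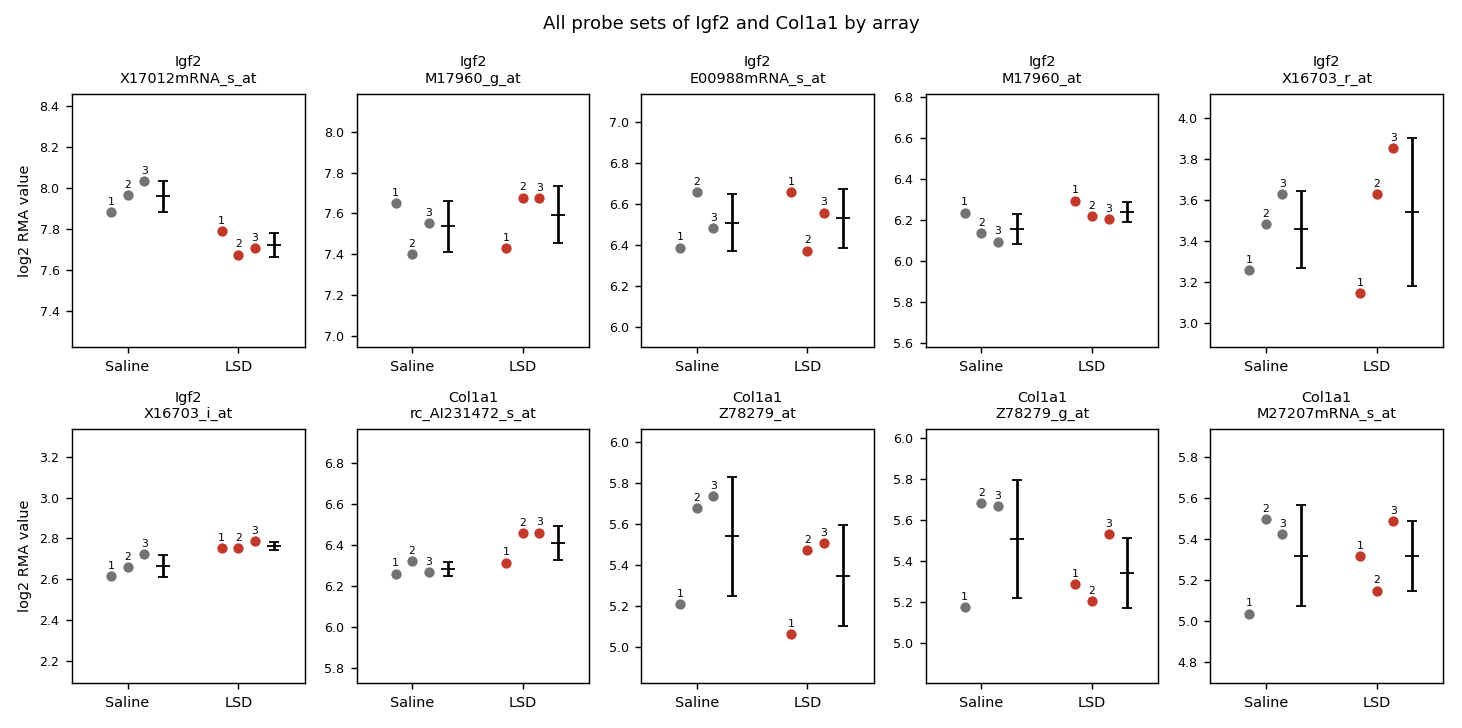
Log2 RMA value (vertical axis) of each array for the 6 Igf2 and the 4 Col1a1 probe sets, with array numbers beside the points and the mean ± SD at the side of each group. Within Igf2 the brightest set has LSD points below all saline points and X16703_i_at has them above, and within Col1a1 rc_AI231472_s_at leans higher and both Z78279 sets lean lower after LSD.

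Over all 23 member probe sets, 11 were nominally lower and 12 higher after LSD, and the median difference was 0.02 against 0.0045 over all probe sets. Of all probe sets 48.6% were nominally lower. In limma 0 of the 23 passed the adjusted threshold, and 5 had an unadjusted p below 0.05, a mark that 3.92% of all probe sets met, 1.52% with LSD lower. These were both sets of Ttr, both of Enpp2 and the brightest of Igf2, all lower. The groups stood apart in 3 sets with LSD lower (both Ttr and X17012mRNA_s_at), which held for 3.79% of all probe sets, and in 1 with LSD higher (X16703_i_at), which held for 6.58%. Since the members were chosen on this contrast, nothing is read from these shares. Ttr, Enpp2 and Kl were lower in every set they had, Ptgds, Aqp1, Col1a2 and Bmp6 higher in every set, and Igf2, Igfbp2 and Col1a1 mixed. For 18 of the 23 sets the 95% interval lay wholly within a 1.5-fold change either way. The 5 whose interval reached further were both Ttr, both Enpp2 and Z78279_at of Col1a1.

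**Figure D3:**
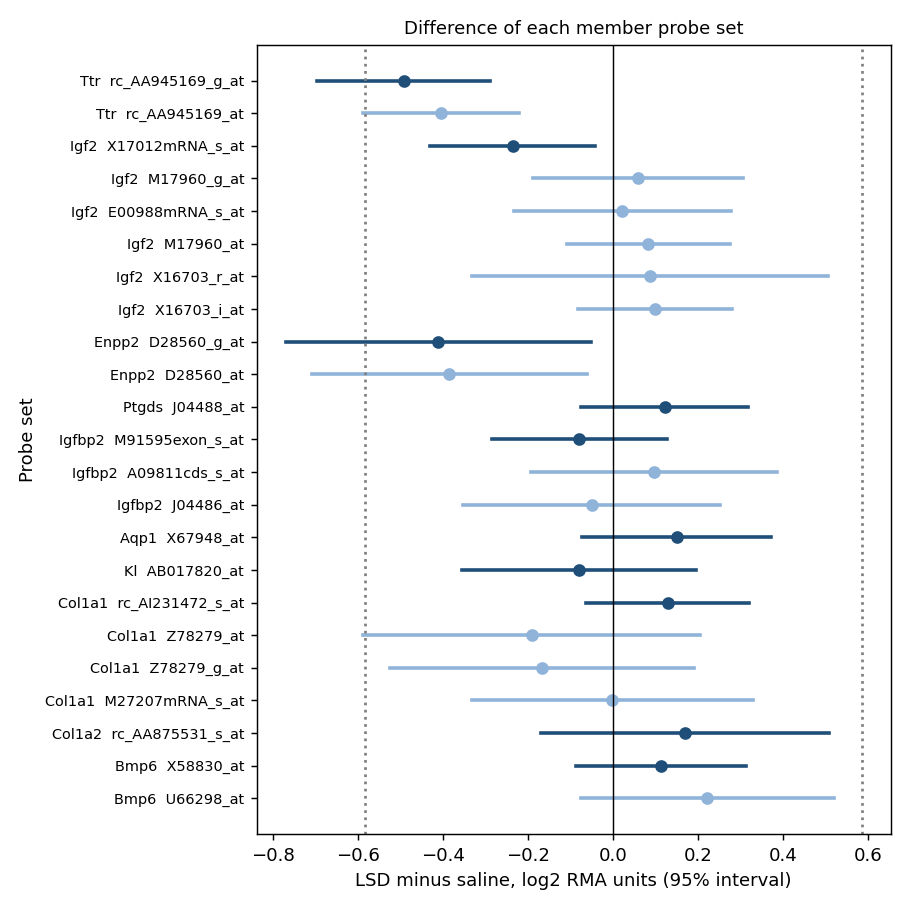
Difference between LSD and saline (horizontal axis, log2 RMA units) for each of the 23 member probe sets, with bars for the 95% interval of the limma fit, dark for the brightest set of a gene and light for its other sets. Dotted lines mark a 1.5-fold change, and the Ttr, Enpp2 and first Igf2 bars lie wholly below 0 while every other bar crosses it.

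With each gene taken by its brightest set and centred on its own mean over the 6 arrays, the 7 genes assigned to the plexus or to both sites (Ttr, Igf2, Enpp2, Ptgds, Igfbp2, Aqp1 and Kl) averaged 0.10, 0.08 and 0.04 log2 units in Saline 1 to 3. In LSD 1 to 3 they averaged 0.00, -0.10 and -0.13, and the groups did not overlap. The 3 genes assigned to the meninges (Col1a1, Col1a2 and Bmp6) averaged -0.19, -0.03 and 0.01 with saline and -0.04, 0.12 and 0.13 with LSD, with overlap between Saline 2, Saline 3 and LSD 1. This division was made with the values known and is not a test. Without Ttr, the other 9 genes averaged 0.01 with saline and -0.01 with LSD, with overlapping groups, against a difference of -0.062 over all 10. With the mean of all probe sets of a gene in place of its brightest, the difference over all 10 was -0.037, that without Ttr turned to 0.0085, and that of the 7 genes was -0.093 against -0.147.

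**Figure D4:**
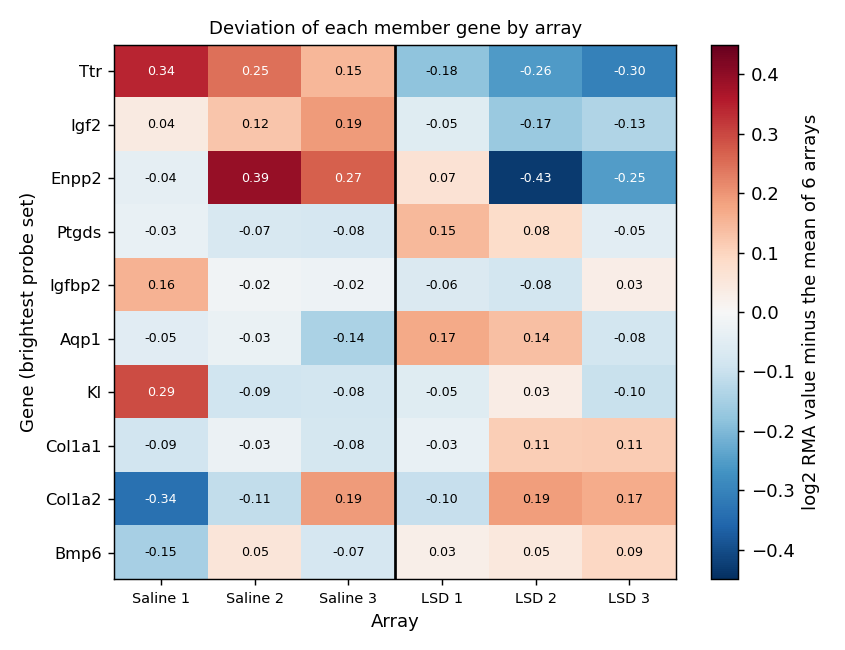
Log2 RMA value of the brightest probe set of each member gene minus its mean over the 6 arrays, with arrays as columns, genes as rows and the value printed in each cell (red higher, blue lower). Ttr and Igf2 are positive in all saline arrays and negative in all LSD arrays, Enpp2 is not, and Saline 1 holds the lowest Col1a1, Col1a2 and Bmp6 values and the highest Kl value.

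Saline 1 also stood apart over the whole table: 78 of 8740 probe sets deviated there by over 1 log2 unit from what the remaining arrays averaged, against 2 to 21 for any other array. It was the lowest array for 8 member sets and the highest for 5. Without it the Ttr sets differed by -0.44 and -0.39, still with LSD lower. The 3′ minus 5′ signal of the beta-actin control, a reading of RNA integrity, was 0.787 ± 0.044 with saline and 0.687 ± 0.041 with LSD (SD, n = 3 per group) and the groups did not overlap, whereas for GAPDH it was 0.523 ± 0.043 and 0.492 ± 0.091. The part of this measure in the Ttr difference was not tested.

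The profile of Ttr was set beside those of all non-member genes by the mean absolute difference of centred values over the 6 arrays. The closest were Hpd (0.0765), Rpl3 (0.0770), COX1 (0.0814), Penk (0.0855) and Synj2 (0.0864), where the second Ttr set stood at 0.0853. Their differences ran from -0.46 ± 0.094 for Penk, which encodes the enkephalin precursor, to -0.33 ± 0.10 for Synj2 (SE, n = 3 per group). This is a likeness over 6 arrays and no test. Since the probe sets were picked for it, their lower values after LSD follow from the choice.

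Other markers of the choroid plexus epithelium were nominally lower in more genes than not. Of 53 listed 28 were measured, of which 20 were nominally lower and 8 higher, with a median of -0.06 and 0 past the adjusted threshold in limma, which 0.0211% of all 4736 genes passed. The median over all genes was 0.0056, and 48.3% of all genes were nominally lower. The unadjusted mark of 0.05 was met, with LSD lower, by 1 of the 28 and by 1.16% of all genes. It was Krt18, an epithelial keratin, which read 4.66, 4.04 and 4.18 with saline and 3.53, 3.85 and 4.01 with LSD. Its groups did not overlap, and its difference was -0.50 ± 0.18 (SE, limma adjusted p = 0.971, n = 3 per group). Slco1a5, an organic anion transporter, differed by -0.42 ± 0.22 with overlapping groups. It was near the low end of the scale, with means of 3.17 with saline and 2.75 with LSD. Saline 1 read 3.70 for it, against 2.92 and 2.89 in the other saline arrays. Bsg, a transporter chaperone also present in vessels and neurons, differed by 0.19 ± 0.084, with all LSD arrays higher. The summed linear level of the 28 ran from 2594 to 2647 over saline arrays and from 2697 to 2743 over LSD arrays, a gap that Bsg accounted for, with mean linear levels of 834 and 949. Without Bsg, a choice made after the data were seen, the other 27 summed to 1762 to 1809 with saline and to 1743 to 1798 with LSD, and the groups overlapped. These sums weigh bright genes most. With each of the 28 genes, Bsg included, centred on its own mean over the arrays, the saline arrays averaged 0.055, 0.0099 and 0.017 log2 units. The LSD arrays averaged -0.047, -0.021 and -0.014, and by this measure the groups did not overlap. No test was made of these averages. Kcnj13, a potassium channel of the plexus, had a mean of 2.82 with saline and 2.78 with LSD, near the low end of the scale. Htr2c, the serotonin receptor abundant in the plexus, differed by -0.07. Folr1, Clic6, Kcne2 and Otx2 were not among the measured genes. No detection calls were used, so these levels do not show whether plexus tissue was in the samples.

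Other markers of meninges and vascular fibroblasts, 38 of 61 listed, were nominally higher in 21 and lower in 17, with a median of 0.03 and 0 past the threshold. The groups stood apart with LSD higher in 5 (Bgn, Fst, Igfbp6, Nupr1 and Tagln) and with LSD lower in 0, against 6.97% and 3.34% of all genes. Igfbp6, an insulin-like growth factor binding protein of meningeal fibroblasts, differed by 0.26 ± 0.10 (SE). Fbln5, an elastic fibre protein, differed by 0.33 ± 0.16 with overlapping groups. Lum, Dcn and Col3a1, core fibroblast matrix genes, differed by 0.12, -0.0042 and -0.04. The summed linear level of all 38 genes ran from 2139 to 2175 with saline and from 2161 to 2234 with LSD. Ependyma, the ciliated lining beside the plexus, had 5 of 12 measured genes nominally higher and 7 lower.

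**Figure D5:**
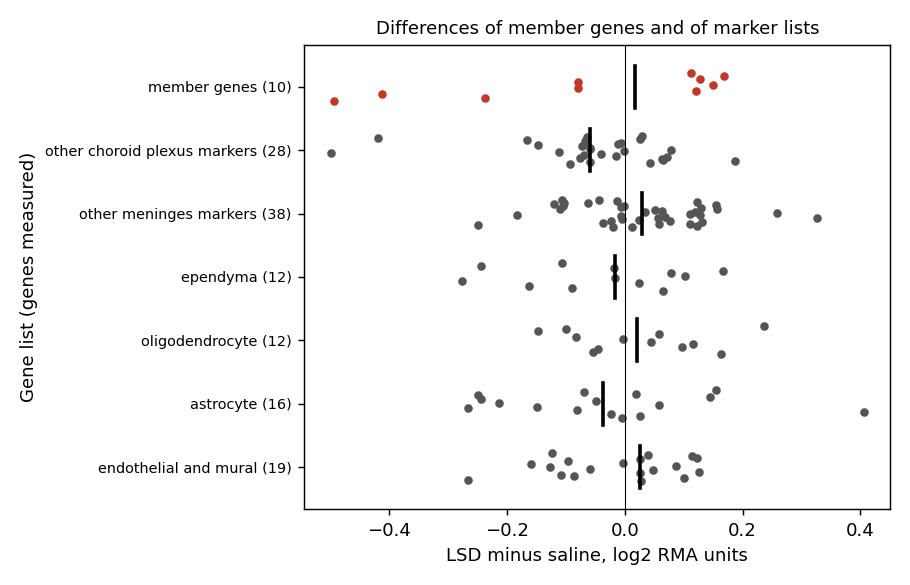
Difference between LSD and saline (horizontal axis, log2 RMA units) of single genes, each a point, for the member genes (red) and for 6 of the 17 lists examined (grey), with the number of genes measured in brackets and a black bar at the median. The medians lie near 0 for every list shown, and the 2 lowest member points are Ttr and Enpp2.

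The pathways in which the members act were read from lists of their partner genes, and 0 genes of any list passed the adjusted threshold in limma. Around Ttr, thyroid hormone and retinol transport and response had 9 of 25 genes nominally higher and 16 lower. Alb, another thyroxine carrier, differed by -0.18 ± 0.087 and Dio3, the deiodinase that inactivates thyroid hormone, by -0.17 ± 0.081, with LSD arrays below saline arrays in both. Thrb, a thyroid hormone receptor, differed by 0.23 ± 0.11 (SE), with LSD arrays above saline arrays. It was near the low end of the scale, with means of 3.09 with saline and 3.32 with LSD, and Saline 1 was lowest at 2.85. Groups stood apart with LSD lower in 3.34% of all genes and with LSD higher in 6.97%. Around Enpp2, 7 of 11 genes of lysophosphatidic acid and nucleotide pyrophosphatases were nominally higher, among them the receptor Lpar1 at 0.19 ± 0.089. Around Igf2 and Igfbp2, 11 of 16 genes of the insulin-like growth factor system were nominally higher, and H19, the neighbour of Igf2, differed by -0.17 ± 0.10.

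Around Ptgds, 9 of 19 genes of prostaglandin synthesis and reception were nominally higher, and Hpgds, the other prostaglandin D synthase, differed by 0.28 ± 0.092 with groups that stood apart. Around Aqp1, 8 of 23 genes of aquaporins and fluid secretion were nominally higher, with Aqp4, the astrocyte water channel, at 0.41 ± 0.13 (3.30, 3.72 and 3.76 with saline, 3.91, 3.99 and 4.10 with LSD). Around Kl, 10 of 17 genes were nominally higher, and around Bmp6, 9 of 24. Around the collagen chains, 14 of 27 genes were nominally higher. The exception in size was Sparc, a collagen-binding matrix protein that astrocytes and vessels also make, which read 11.16, 11.11 and 11.40 with saline and 10.73, 10.73 and 10.57 with LSD, a difference of -0.55 ± 0.10 (SE, limma adjusted p = 0.409, n = 3 per group). Among cell type lists, astrocytes had 6 of 16 genes nominally higher, endothelial and mural cells 10 of 19, microglia 7 of 12, blood 4 of 8 and excitatory cortical neurons 6 of 12. Over the 17 lists the medians lay between -0.06 and 0.04.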

How the data were processed

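RNA of the medial prefrontal cortex was read on 6 arrays, 3 per group, grouped by title. The deposited table holds log2 values. They come from RMA as run by the authors in the affy package (version not given in the sources used here), a method that quantile-normalises arrays, so a shift common to most transcripts cannot be seen. The table held 8799 probe sets, and 59 controls were left out. The platform annotation gave 1 symbol to 7006 of the remaining 8740, several to 308 and none to 1426, and all 10 member symbols matched RefSeq by gene ID. A two-sided limma fit without covariates (version 3.58.1, R 4.3.3) compared LSD with saline over all 8740 probe sets, and over 4736 genes each taken by its brightest probe set. P-values were adjusted by Benjamini-Hochberg and called below 0.05. The study's methods name a Wilcoxon rank test, which in its exact form cannot go below p = 0.1 with 3 arrays against 3, so it was kept as an alternative. The fit was tested on simulated data. The other alternatives were rescaling, a level filter, a variance trend, array weights, a replicate block, other choices of probe set, and leaving out each array. Members and lists were chosen with earlier results of these data known. Every member probe set is described, and from each list at most the 3 genes of lowest p, with further plexus and meninges markers named after their values were seen, Bgn, Fst and Tagln because their groups stood apart. For likeness to Ttr the 5 closest probe sets of non-member genes are given. Mbp was named after its values were seen.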

Additional observations from a re-analysis of the deposited data

How the results depend on the processing

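Of the 23 member probe sets, 16 kept the sign of their difference under every alternative run and 7 changed it in at least one; none moved by more than the spread between replicates. The number of member probe sets past the adjusted threshold was 0 in limma and rose to 2 with an intensity trend and robust prior (both Ttr sets) and to 3 with array weights (both Ttr sets and D28560_at of Enpp2), and at gene level from 0 to 1 with the trend and robust prior. For these settings the share of all probe sets that passed was not counted, so the rise is not read as a result about the members. The number was 0 under the other scalings, the level filter, the exact Wilcoxon test and every omission of an array. The median difference over member probe sets, 0.02, was -0.0510 with only the 15 sets above the median level, and with 1 array left out ranged from -0.0502 (without LSD 3) to 0.0737 (without Saline 2), being -0.01 without Saline 1. The median over member genes, 0.02, was -0.0794 above the median level and 0.0693 with array weights, and ranged from -0.0033 to 0.0445 with 1 array left out. The mean deviation over all 10 genes, LSD minus saline, was -0.0620 by brightest set and -0.0372 by the mean of all sets. The cause was not tested. The labels number the replicates alike in both groups, but the deviations of equally numbered arrays correlated at -0.0175, -0.232 and 0.175, and 2 of 6 arrays were most like their own number. These values gave no sign that the numbers pair the arrays, but 3 arrays per group cannot exclude it. With the replicate block 0 member probe sets passed, 11 were lower and the median stayed at 0.0213, and at gene level 0 passed, 5 were lower and the median was 0.0168. The array number limits what can be seen, and no signal over background was available.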
